A study of Mus musculus with 4 samples.

Results

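The genes described here encode the proteins of the cytosolic ribosome. They were taken from the mouse annotation by symbol, as protein-coding genes named Rpl, Rps or Rplp followed by a number (with a letter or an added l where the symbol has one), plus Rpsa, and symbols of annotated pseudogenes were left out. This gave 83 of the 52636 genes in the deposited tables. By their symbols, 43 belonged to the large subunit, 31 to the small subunit and 3 to the stalk, and 6 were paralogues whose symbol is that of another member with an l or l1 added. Of the 83, 71 reached an RPKM of 1 in at least 2 libraries and were tested, among 10927 genes tested in all. RPKM is the number of reads in a gene divided by the length of its exons and by the depth of the library. The deposited values are read here as RPKM that the authors rescaled by a size factor per library. Differences between the groups on the deposited scale include that rescaling.

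The large ribosomal subunit forms peptide bonds and the small subunit reads the mRNA. The stalk, a flexible arm of the large subunit built from Rplp0, Rplp1 and Rplp2, recruits the elongation factors. Messenger RNAs of ribosomal proteins begin with a cytosine followed by a tract of pyrimidines, the terminal oligopyrimidine (TOP) motif, through which mTORC1 and the RNA-binding protein Larp1 control their translation. In mammalian genomes these short, abundant messages have given rise to many processed pseudogenes, which are copies of the spliced mRNA inserted elsewhere in the genome.

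Cells came from the corpus callosum, a myelinated tract of the brain, of Mertk_KO mice on chow with 0.2% cuprizone for 4 weeks. Cuprizone kills oligodendrocytes, the cells that make myelin, and Mertk is a receptor by which phagocytes engulf dying cells. Annexin V binds phosphatidylserine on the outside of dying cells, and the study compared dying cells (AnnexinV-positive, 2 libraries) with living cells (AnnexinV-negative, 2 libraries). Both groups carried the Mertk knockout and received cuprizone, so the data hold no wild-type and no untreated group. The labels do not say whether the libraries of a group came from separate animals or from pools, so the p-values cover no more than the spread among these libraries, and that spread may be technical.

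The depth that the values imply ranged from 43244000 to 67448000 reads in genes per library. A single read per kb corresponds to an RPKM between 0.00833 and 0.0116, and this step did not follow depth. It was 0.0101 in AnnexinV-positive library 1, with 67448000 reads, and 0.0103 in AnnexinV-negative library 2, with 43244000. The deposited values are thus not scaled by depth alone. Mertk itself had RPKM values of 62.6 and 53.6 in AnnexinV-positive libraries 1 and 2, with 18.8 and 29.9 in their AnnexinV-negative counterparts, which without a wild-type library does not check the knockout. Markers of mature oligodendrocytes, summed over 15 genes, had an RPKM of 35.0 to 47.1 in AnnexinV-positive and 539 to 986 in AnnexinV-negative libraries, and all 15 were lower in AnnexinV-positive cells. The 14 markers of homeostatic microglia summed to 6070 to 6200 and to 2362 to 2875, and all 14 were higher in AnnexinV-positive cells on the deposited scale, but 1 of 14 on a TPM scale (values rescaled to the same sum in each library), where the 14 differences were still positive. No marker of either list was at 0 in any library. In bulk samples, fewer cells of a type and less RNA per cell cannot be told apart, and the part of cell composition in the values below was not tested.

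The mean levels of the 83 ribosomal protein genes ran from an RPKM of 93.0 down to 0.0135. Rpl8, a core protein of the large subunit, had the highest mean RPKM of the 83, with 92.1 (library 1) and 142 (library 2) in AnnexinV-positive cells, against 77.3 (library 1) and 61.0 (library 2) in AnnexinV-negative cells. Values of other genes are given in the same order of libraries. Rpl4, another large subunit protein, stood at 99.9 and 132 against 66.1 and 73.1. Rpl32 had 74.4 and 145 against 60.1 and 54.7. In each of these 3 genes both AnnexinV-positive libraries lay above both AnnexinV-negative ones, and AnnexinV-positive library 2 was the highest. Their mean levels (93.0, 92.8 and 83.5) were closer to each other than the 4 libraries of any 1 of them.

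Most of the family was far lower. A mean RPKM above 50 was reached by 8 members, whereas 52 of the 83 had a mean under 5. Actb, the gene of cytoplasmic actin, had an RPKM of 1334 to 2805 in the same libraries. The 4 lowest members were Rpl3l and Rpl10l, at a mean RPKM of 0.0135 each, Rpl7a at 0.303 and Rpl17 at 0.430. Rpl3l and Rpl10l are paralogues with expression restricted to muscle and testis, respectively, and each was listed at 0 in at least 1 library. Rpl7a and Rpl17 are ordinary subunits that every growing cell needs. Rpl7a had 0.299 and 0.521 in dying against 0.301 and 0.0903 in living cells. For Rpl17 the values were 0.404 and 0.719 against 0.462 and 0.133, and for both genes the groups overlapped.

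**Figure D1:**
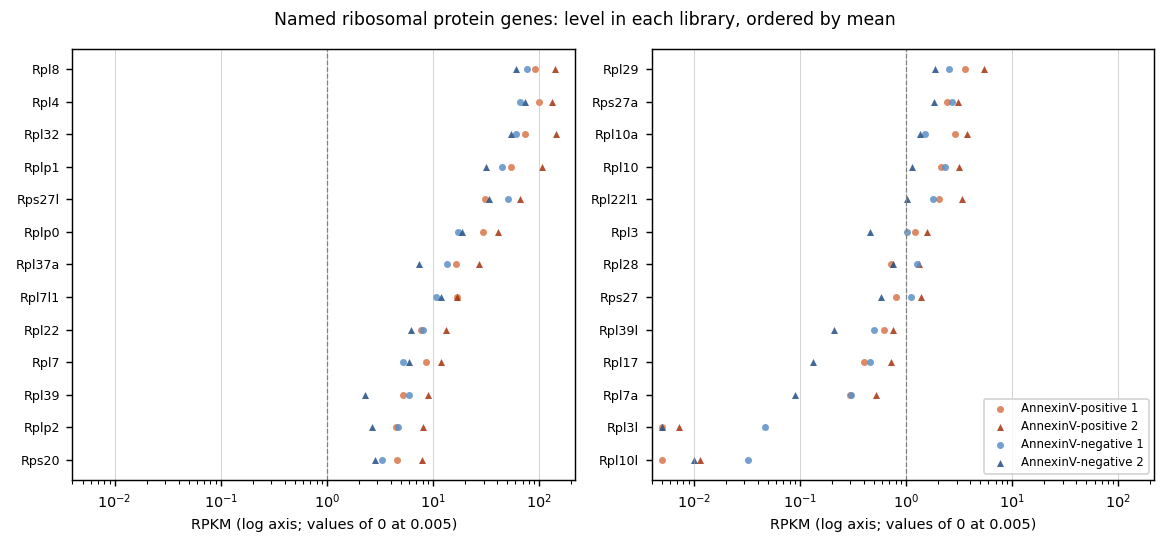
RPKM on a log axis of 26 named cytosolic ribosomal protein genes in the 4 libraries, ordered by mean level. AnnexinV-positive library 2 (dark red triangles) lies to the right of the other 3 libraries in each plotted gene but Rpl3l and Rpl10l, and the levels run from 93.0 for Rpl8 to 0.0135 for Rpl3l and Rpl10l in the mean.

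The 10 highest members held 61.5% to 65.2% of the summed RPKM of the family in each library. Ribosomal proteins are needed in nearly equal numbers in a ribosome, and the spread of these levels is therefore set beside 2 properties of the gene models. First, the exons of a gene as counted here, merged over its transcripts, were a median of 2.01 times as long as its principal transcript, and up to 6.79 times for Rpl35a, and a longer model lowers RPKM. Second, the coding sequence of most members is repeated elsewhere in the transcriptome. Every run of 50 bases of each coding sequence was looked up in the annotated transcripts of all other genes, pseudogenes included. The median member shared 90.3% of these 50-base runs with another gene, and 68 of the 83 members (81.9%) shared over 50%. Among 9733 other protein-coding genes tested the median was 0 and 5.59% shared over 50%.

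At least 1 pseudogene shared coding sequence with 80 of the 83 members, with a median of 8 pseudogenes per member and 120 for Rpl7a. The annotation also named 283 pseudogenes after 60 of the members. How the authors' counting treated reads that map to several genes is not given in the sources used here. The 8 members with under 25% of their coding sequence shared, among them Rpl4, Rpl8 and the paralogues Rpl7l1, Rpl39l and Rpl3l, had a median level of 35.3. The 7 members at 25% to 50% (among them Rpl22, Rps27l and Rpl32) had a median of 42.9 and none was below 8.81. In the 62 members with over 75% shared, the median was 2.50 and the range 0.303 to 27.1. Across the 83 members, Spearman's rho between mean level and shared coding sequence was -0.53, as a description over genes of the same libraries that also differ in length.

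Single genes, chosen after their values were seen, lay on both sides of this relation. Rps3, a small subunit protein with 8.09% shared, had a mean level of 56.6. Rpl7a and Rpl17, with 93.3% and 100% shared, had 0.303 and 0.430. Rpl39l went the other way, with 0% shared and a mean level of 0.522, and the members with over 75% shared reached 27.1, as given above. Gapdh, a glycolytic enzyme gene that is no member and whose coding sequence is 100% shared, stood at 1.17 and 1.38 against 0.763 and 0.276. Pseudogenes had values in these tables as well, and whether these reads came from the pseudogenes or from their parent genes was not tested. The 993 pseudogenes that share coding 50-base runs with a member summed to 476 and 763 in AnnexinV-positive cells, against 528 and 361 in AnnexinV-negative cells. Rpl14-ps1, a copy of Rpl14, had a mean RPKM of 33.8. Gm9794, which matches Rpl23, stood at 31.8 and 56.0 against 26.9 and 16.0. The part that read assignment and gene models play in the levels was not tested. RPKM of a member is thus given here as the level of the annotated gene in these tables, and no order between a highly shared and a little shared member is drawn from it.

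**Figure D2:**
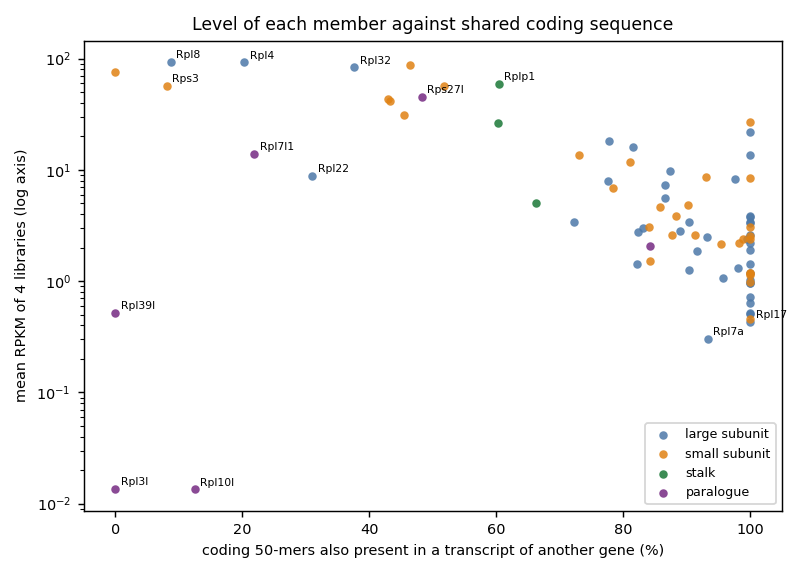
Mean RPKM over 4 libraries (log axis) of each of the 83 members against the percent of its coding 50-base runs that also occur in a transcript of another gene, coloured by role. Of the 62 members beyond 75% none has a mean above 27.1, and the 3 points at the lower left are the paralogues Rpl39l, Rpl3l and Rpl10l.

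The starts of the genes were read from RefSeq (GRCm38.p6) to show the TOP motif that the family is known for. A window of 30 bases, 15 before the annotated start and 15 from it on, was available for 63 members, and 27 of them (42.9%) held a run of at least 8 pyrimidines (C or T, on the strand of the gene), against 3760 of 27025 gene symbols (13.9%). A cytosine at the start base followed by at least 4 pyrimidines was found in 13 members (20.6%) and in 3.01% of all symbols. The windows below, in which capitals mark the longest pyrimidine run, are those of some of the named genes. Windows of other named genes, Rpl10a among them, are not shown. Some members have windows at several annotated starts. Rpl4 lies on the plus strand at chr9:64173372-64173401, Rplp2 on the plus strand at chr7:141447636-141447665, Rps27 on the minus strand at chr3:90213634-90213663, Rpl7a on the plus strand at chr2:26910792-26910821 and Rpl28 on the plus strand at chr7:4792950-4792979. The windows of Rplp0 (plus strand, chr5:115559452-115559481), Rpl37a (plus strand, chr1:72711245-72711274) and Rpl7l1 (minus strand, chr17:46782642-46782671) held no run of 8.
Rpl4: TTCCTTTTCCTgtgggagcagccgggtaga
Rplp2: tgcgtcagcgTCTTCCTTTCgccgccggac
Rps27: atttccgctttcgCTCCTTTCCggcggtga
Rpl7a: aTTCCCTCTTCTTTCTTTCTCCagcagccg
Rpl28: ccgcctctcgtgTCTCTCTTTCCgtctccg
Rplp0: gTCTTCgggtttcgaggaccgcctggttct
Rpl37a: TTCCgctcgccggtctaaaaccgcgcatgc
Rpl7l1: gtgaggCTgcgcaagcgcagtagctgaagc
In Rplp2, Rps27, Rpl7a and Rpl28 the run spans the annotated start, in Rpl4 it lies before it, and annotated starts may differ from the starts used in these cells. The absence of a run says only that these letters are not in the window.

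The question of the study is which transcripts differ between dying and living cells. On the deposited RPKM scale, 22 of the 71 tested members were higher in AnnexinV-positive cells and 0 were lower, by limma's moderated test at an adjusted p of 0.05. This is 31.0% of the tested members, next to 30.8% of all genes tested that were higher and 9.26% that were lower, so the share of members called does not stand apart from the background. At an unadjusted p of 0.05, 41 members were higher and 0 lower. A further 9 members had a limma adjusted p between 0.05 and 0.06. The share of all genes tested within these limits was not counted. Numbers at an unadjusted p, here and below, therefore have no background and show no excess of the family. Each of the 71 reached the level minimum in at least 1 AnnexinV-negative library, so none was tested through the AnnexinV-positive group alone.

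The direction was more uniform than the calls. All 71 tested members had a positive log2 difference on the deposited scale, against 78.4% of all genes tested, with a median of 0.77 against 0.45, although on a TPM scale 33 of the 71 were negative and with microglial genes held level all 71 were. Differences here and below are AnnexinV-positive minus AnnexinV-negative on log2(RPKM + 0.1), which understates the change of low genes. Both AnnexinV-positive libraries exceeded both AnnexinV-negative ones in 51 of the 71 members (71.8%), and in 60.9% of all genes tested. Of the 12 members below the level minimum, 10 had a higher mean in AnnexinV-positive cells, and in 2, Rpl5 and Rpl39l, the groups did not overlap.

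In the large subunit 8 of 35 tested genes were higher (22.9%, beside 30.8% of all genes tested), with a median difference of 0.75. Rpl10a, a protein near the exit site of tRNA, had an RPKM of 2.93 and 3.77 against 1.52 and 1.36. The AnnexinV-positive values were both above the AnnexinV-negative ones, and the difference of 1.16 ± 0.23 (SE) had the lowest limma adjusted p of the family, 0.00931. Its exons share 51 bases with another annotated gene, and the library kit does not keep strand, so reads of overlapping genes cannot be told apart. Such overlaps were found in 38 of the 83 members, among them Rpl4 (158 bases) and Rpl32 (193 bases), but not in Rpl37a or Rpl29. Rpl37a, a zinc-binding protein, had 16.4 and 27.3 against 13.6 and 7.36 (difference 1.07 ± 0.35, limma adjusted p = 0.0473). Rpl29 had 3.59 and 5.50 against 2.55 and 1.89 (0.98 ± 0.27, limma adjusted p = 0.0284). Rpl4 rose by 0.73 ± 0.20 on the log2 scale (limma adjusted p = 0.0300). Rpl8, at a like difference of 0.73 ± 0.25, did not pass (limma adjusted p = 0.0565), and nor did Rpl32 at 0.86 ± 0.31 (limma adjusted p = 0.0640).

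Rpl28, a large subunit protein, was nearest to no difference. It had 0.722 and 1.34 against 1.26 and 0.752, so that 1 library of each group was high and 1 low. The difference was 0.02 ± 0.38 (limma adjusted p = 0.972), and an SE of this size does not show that the groups are alike. Of its exon bases 183 lie in Ube2s.

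In the small subunit 11 of 30 tested genes were higher (36.7%, beside 30.8% of all genes tested), with a median difference of 0.78. Rps20 had 4.54 and 7.87 against 3.28 and 2.82 (difference 0.95 ± 0.28, limma adjusted p = 0.0353). Rps6, the substrate of S6 kinase downstream of mTORC1, is named for its role and was chosen after its values were seen. It had 3.81 and 3.93 against 2.27 and 2.22, the libraries of each group being close together (0.76 ± 0.19, limma adjusted p = 0.0212). Rps28 had the largest fitted difference of the family, 1.16 ± 0.41, from 8.34 and 15.1 against 7.26 and 3.39, and with this spread did not pass (limma adjusted p = 0.0584). It too was chosen after its values were seen. Rps27a, made as a fusion of ubiquitin with a small subunit protein, had 2.47 and 3.09 against 2.72 and 1.84. Its groups overlapped and the difference of 0.29 ± 0.26 did not pass (limma adjusted p = 0.385).

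Of the 3 stalk genes 2 were higher, where 30.8% of all genes tested were higher. Rplp0, the base of the stalk, had 29.8 and 40.7 against 17.3 and 18.7 (difference 0.95 ± 0.21, limma adjusted p = 0.0135). Rplp1, an acidic protein that binds Rplp0 as a dimer with Rplp2, had 55.0 and 106 against 45.1 and 32.0 (1.01 ± 0.33, limma adjusted p = 0.0484). For Rplp2 the values were 4.51 and 8.13 against 4.72 and 2.65. AnnexinV-negative library 1 exceeded AnnexinV-positive library 1, and the difference of 0.76 ± 0.36 did not pass (limma adjusted p = 0.130). The 3 genes share 60.3% to 66.2% of their coding sequence with other genes.

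The paralogues divided into those present and those near 0. Rpl7l1, a relative of Rpl7 that takes part in ribosome assembly, had 16.7 and 16.8 against 10.7 and 11.9. Its libraries agreed closely within each group and it was higher by 0.57 ± 0.17 (limma adjusted p = 0.0391). Rpl7 itself had 8.54 and 12 against 5.26 and 5.95 (0.84 ± 0.22, limma adjusted p = 0.0245). Rps27l, a p53 target, reached 30.7 and 65.7 against 51.6 and 33.9, whereas Rps27 was at 0.810 and 1.38 against 1.12 and 0.581. In both genes the groups overlapped, and neither difference passed (0.10 ± 0.37 with a limma adjusted p of 0.831, and 0.35 ± 0.39 with 0.484). Rps27l shares 48.3% and Rps27 100% of its coding sequence with other genes, which stands beside their order.

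Rpl22l1 had 2.05 and 3.38 against 1.80 and 1.03, and its parent Rpl22, an RNA-binding protein dispensable for translation, had 7.79 and 13.3 against 7.99 and 6.17. The differences were 0.90 ± 0.34 and 0.53 ± 0.29, neither past the limma test (adjusted p = 0.0739 and 0.172). Rpl39l, known from the testis, was below the minimum at 0.621 and 0.755 against 0.501 and 0.211, and Rpl39, the protein it resembles at the peptide exit tunnel, had 5.25 and 9.02 against 5.90 and 2.29. Rpl39 did not pass (0.88 ± 0.45, limma adjusted p = 0.151). Rpl3, next to the peptidyl transferase centre, had 1.22 and 1.57 against 1.02 and 0.455 (0.91 ± 0.39, limma adjusted p = 0.0974), and its paralogue Rpl3l did not exceed 0.0469 in any library. Rpl10, which completes the large subunit late in its assembly, had 2.15 and 3.19 against 2.31 and 1.13 (0.66 ± 0.36, limma adjusted p = 0.178), and Rpl10l did not exceed 0.0326. At these levels of Rpl3l and Rpl10l no difference was detectable.

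The differences between the groups were also set against shared sequence and the start motif. They had a median of 0.73 in the 5 tested members with under 25% of coding sequence shared, and of 0.78 in the 53 with over 75%. Across the 71 tested members Spearman's rho between the difference and the shared coding sequence was -0.13. With a pyrimidine run of 8 or more in the start window, 6 of 26 tested members were higher and the median difference was 0.76. Without one, 11 of 27 were higher and the median was 0.77. Of the 18 tested members with no window, 5 were higher, at a median of 0.82. Of the 74 pseudogenes tested among those sharing coding sequence, 14 were higher and 4 lower, with a median difference of 0.81. Beside these counts, 30.8% of all genes tested were higher and 9.26% lower, and no excess is read from them. Adding the reads of pseudogenes named after a member to that member left 21 members higher, beside 30.8% of all genes.

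Between the groups the median member difference was 0.77 on the deposited scale. The 2 libraries of a group also differed, nearly as much in AnnexinV-positive cells and less in AnnexinV-negative cells. AnnexinV-positive library 2 exceeded library 1 in 71 of 71 tested members (100%), with a median log2 difference of 0.68, whereas among all genes tested it did so in 55.5%, by a median of 0.05. AnnexinV-negative library 1 exceeded library 2 in 67 of 71 (94.4%), by a median of 0.40, against 48.6% of all genes tested. AnnexinV-positive library 2 was the highest of the 4 libraries in 71 of 71 members and in 43.8% of all genes, and AnnexinV-negative library 2 the lowest in 65 of 71 (91.5%) and in 34.1% of all genes. Rps6 (0.04 and -0.03 within the pairs) and Rpl7l1 (0.01 and 0.16) were among the genes with close pairs.

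**Figure D3:**
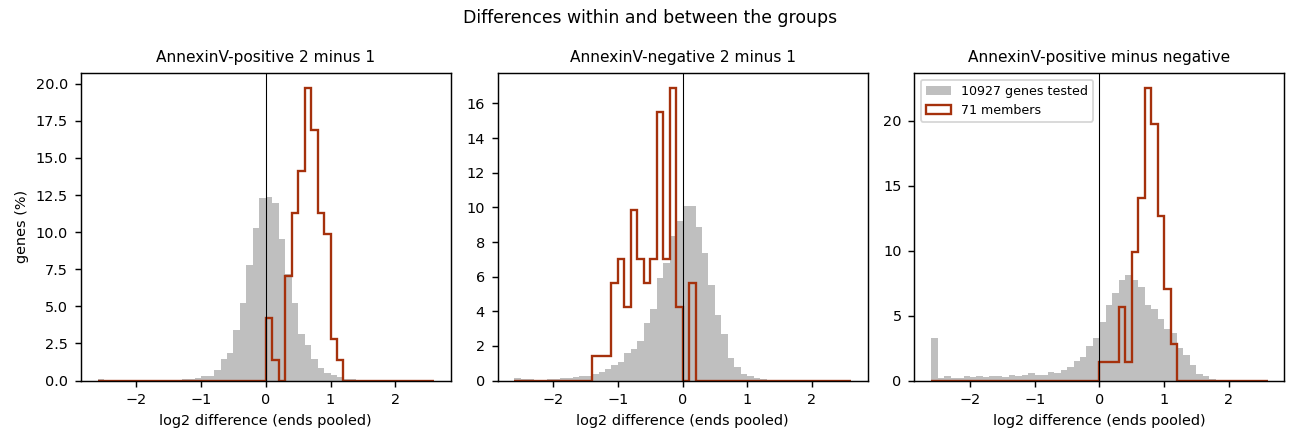
Distribution of log2 differences in percent of genes, for 71 tested members (line) and 10927 genes tested (grey): AnnexinV-positive library 2 minus 1, AnnexinV-negative library 2 minus 1, and AnnexinV-positive minus AnnexinV-negative on the deposited scale. All 71 members lie above 0 in the first panel, 67 below 0 in the second and 71 above 0 in the third, where on a TPM scale it would be 38.

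Gene length moved with these library differences. Tested members had a median exonic length of 1770 bases, against 4106 over all genes tested, and with genes divided by length into 4 bins of equal number, 46 of the 71 were in the shortest bin. Other genes of that bin had a median difference of 0.27 between AnnexinV-positive libraries 2 and 1, and of -0.36 between AnnexinV-negative libraries 2 and 1. In the longest bin the same medians were -0.12 and 0.23. The 46 members of the shortest bin had 0.69 and -0.56, and the 21 members of the next bin had 0.58 and -0.32 where other genes had 0.09 and -0.03. The members thus went in the direction of short genes and further than the median short gene. When each library was centred within 20 bins of gene length, an alternative added after seeing the data, 8 members were higher and 0 lower, beside 17.8% and 13% of all genes. The median member difference was then 0.43. The part of length in the group difference was not tested.

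**Figure D4:**
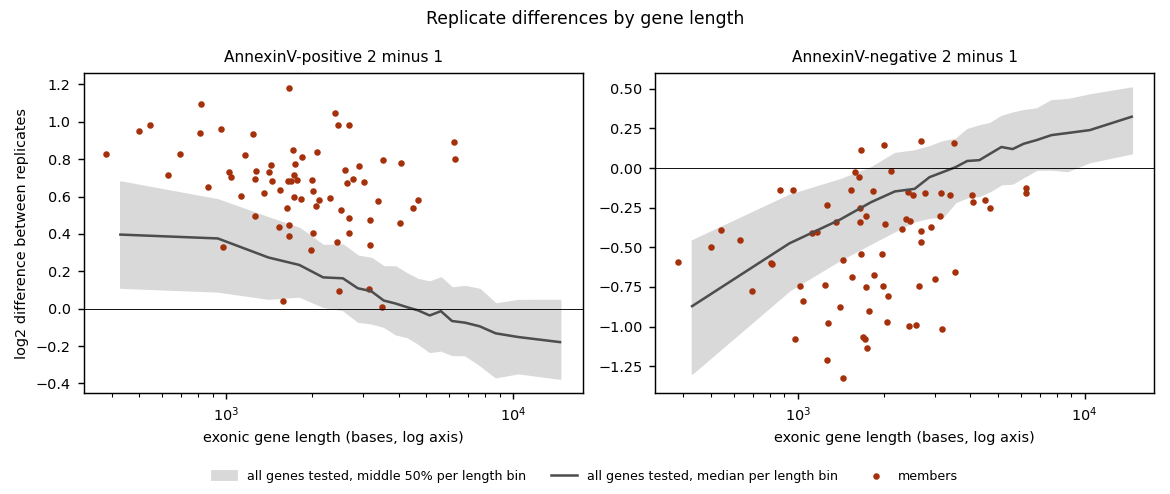
Log2 difference between the 2 libraries of a group against exonic gene length (log axis), with AnnexinV-positive library 2 minus 1 on the left and AnnexinV-negative library 2 minus 1 on the right. The line and band give the median and the middle 50% of all genes tested in bins of length, and points are the 71 tested members. In the left panel all 71 members lie above 0, while the median of all genes falls below 0 in long genes.

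The group difference depended much on the libraries numbered 2, and most on AnnexinV-positive library 2. Without AnnexinV-positive library 2, 0 of the 71 members passed the limma test (4 were higher at an unadjusted p of 0.05), where 11.9% of all genes tested were still higher. The median member difference was then 0.46, which is 0.05 above the median of all genes tested, compared with 0.33 above it with all 4 libraries. Without AnnexinV-negative library 2, 8 members were higher (30.7% of all genes), and the excess over the median gene was 0.11. Leaving out AnnexinV-positive library 1 or AnnexinV-negative library 1 gave 41 and 45 members higher (16% and 28.7% of all genes), with excesses of 0.62 and 0.49. In each of these fits the single library left in a group was assumed to vary like the other group. Rpl28, Rps27l and Rps27 turned negative without either library 2.

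The scale also decided how many members were called. The deposited values of all genes summed to 200348 and 217768 in AnnexinV-positive cells, against 122944 and 120680 in AnnexinV-negative cells, and the median difference of all genes tested was 0.45 above 0. After centring of each library on its median over the genes tested, 1 member was higher (Rpl10a, with 10.4% of all genes) and 0 lower (10.8% of all genes), at a median of 0.46. At an unadjusted p of 0.05 it was 6 and 0, with all genes not counted. On a TPM scale, where each library sums to the same total, 0 members were higher and 0 lower by limma, also at an unadjusted p of 0.05. There the median difference was 0.01, with 38 members positive and 33 negative, and all genes tested divided into 113 higher (1.03%) and 2091 lower (19.1%). After centring of each library on the homeostatic microglia genes, 0 members were higher (0.119% of all genes) and 3 lower (54.7% of all genes; Rps27a, Rpl7l1 and Rpl27), at a median of -0.43. At an unadjusted p of 0.05 it was 0 and 7, with all genes not counted. The median member stood 0.33 above the median of all genes tested on each of these scales. They shift all genes of a library together, so this excess stays the same by construction and is no check of the difference. It was 0.30 after centring within length bins and 0.05 without AnnexinV-positive library 2.

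**Figure D5:**
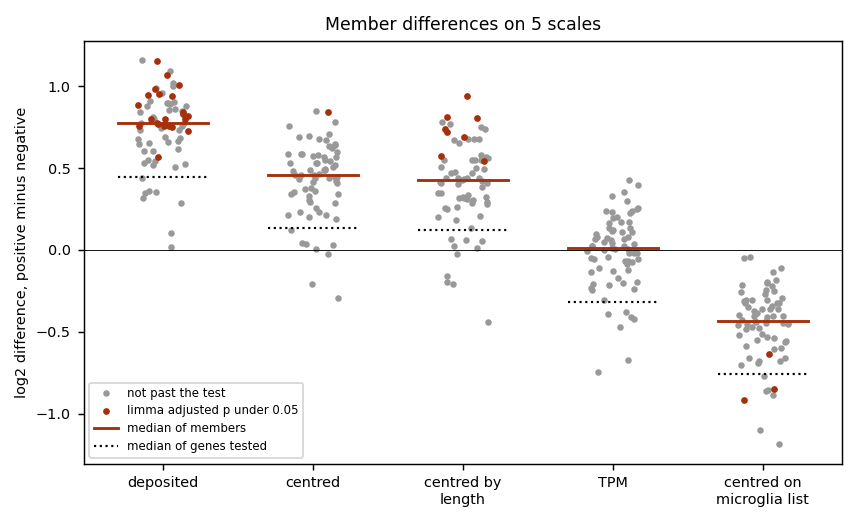
Log2 difference of each of the 71 tested members on 5 scales, with calls by limma at an adjusted p of 0.05 in red, the member median as a line and the median of all genes tested as a dotted line. The number of members higher is 22 as deposited, 1 after centring on the median gene, 8 after centring within bins of length and 0 on the TPM scale, and after centring on the microglia list all 71 differences are negative.

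As a share of each library, the family overlapped between the groups. The 83 members summed to an RPKM of 1070 and 1746 in dying cells, against 898 and 720 in living cells. This was 0.534% and 0.802% of all values in the first group and 0.730% and 0.597% in the other, with no order between the groups. The highest and the lowest share were both in AnnexinV-positive libraries. Counted in reads the shares were 0.275% and 0.423% against 0.362% and 0.284%. The ratio of the group means was 1.01 by summed values and 1.08 by reads. With 2 libraries against 2 an exact permutation test cannot give a p below 0.333, so no test is given.

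Genes that work with the ribosome were set beside the family in 8 lists. Over these lists 36 of 205 tested genes (17.6%) were higher and 0 lower by limma, where 30.8% of all genes tested were higher. At an unadjusted p of 0.05 it was 59 and 0, with all genes not counted. The median difference was 0.37, compared with 0.77 for the members and 0.45 for all genes tested. These values are on the deposited scale, and on the TPM scale 0 of the 205 were higher and 20 lower.

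Fau, which encodes a ribosomal protein fused to a ubiquitin-like protein, did not pass the test. It had 4.26 and 5.07 against 3.83 and 1.73 (difference 0.82 ± 0.36, limma adjusted p = 0.103), with AnnexinV-positive library 2 as the highest and AnnexinV-negative library 2 as the lowest, as in most members. Of the elongation factors 5 of 10 were higher (median 0.63). Eef1a1, which delivers tRNA, was at 160 and 188 against 90.1 and 109, and Eef2, which moves the ribosome along, at 92.7 and 120 against 53.9 and 62.2 (limma adjusted p = 0.0191 and 0.0168). Eef2k, the kinase that inhibits Eef2, was higher as well, by 0.75 ± 0.21 (limma adjusted p = 0.0288).

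Initiation factors had 12 of 37 higher (median 0.46). They include Eif4a1, the helicase of the cap complex, at 11.9 and 13.1 against 7.33 and 5.92, and Eif5 at 35.6 and 37.1 against 19.6 and 21.1 (limma adjusted p = 0.0121 and 0.0106). Eif1a, a start codon scanning factor, rose by 0.88 ± 0.18 (limma adjusted p = 0.00988). Other messages with a TOP motif had 4 of 10 higher (median 0.55). Pabpc1, the poly(A)-binding protein, had 27.4 and 35.7 against 12 and 14.1, a difference of 1.26 ± 0.21 (limma adjusted p = 0.00537). Rack1, which sits on the small subunit, had 45.4 and 71.4 against 34.8 and 28.8 (limma adjusted p = 0.0361).

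Of the 44 genes of ribosome biogenesis and rRNA transcription, 7 were higher (median 0.39). Npm1 and Ncl, nucleolar proteins, and Taf1b, a subunit of the RNA polymerase I factor SL1, had differences of 0.91 ± 0.20, 0.78 ± 0.18 and 0.83 ± 0.21 (limma adjusted p = 0.0130, 0.0169 and 0.0229). Proteins of the mitochondrial ribosome had 3 of 76 higher (median 0.33), and these were Mrpl16, Mrps15 and Mrpl17, at differences of 0.97, 0.82 and 0.66. In the mTORC1 list 5 of 18 were higher (median 0.53), among them Rptor, its scaffold, at 10.7 and 7.49 against 3.74 and 4.68, and the Rag GTPase Rragc at 44.0 and 40.1 against 21.7 and 24.8 (limma adjusted p = 0.0138 and 0.0112). Lamtor1, which anchors the complex at the lysosome, was higher by 0.72 ± 0.21 (limma adjusted p = 0.0313). Of 9 genes of ribosome quality control and of the p53 response to ribosome stress, 1 was higher. This was Trp53, with 18.7 and 20.4 against 12.3 and 11.7 (0.70 ± 0.17, limma adjusted p = 0.0199), whereas Usp10 and Rnf10 had differences of 0.28 ± 0.19 and 0.22 ± 0.17 that did not pass (limma adjusted p = 0.264 and 0.317).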

How the data were processed

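Bulk RNA-seq libraries from 4 samples were analysed, 2 AnnexinV-positive and 2 AnnexinV-negative, grouped by their titles. Libraries were made with the TruSeq RNA kit v2, per the labels' protocols, which does not keep strand. Reads were aligned with GSNAP to mm10, per the submitters' processing notes. For the gene counter, the annotation and reads with several matches, the method is not given in the sources used here. Deposited files held 1 unlabelled value per Ensembl gene, read here as RPKM that the authors scaled by size factors: 79.6% to 83.6% of values worth under 100 reads lay within 0.01 of a whole number of reads for the exonic gene length in GENCODE vM21 (GRCm38). A symbol was found there for 52403 genes. The step of a single read turns values into reads, and their sum over genes gives the depth of each library. The 2 libraries per group limit the precision.

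Genes reaching an RPKM of 1 in 2 libraries were tested on log2(RPKM + 0.1), and the groups were compared with limma 3.58.1 (R 4.3.3) with an intensity trend, no covariate and Benjamini-Hochberg adjustment over all 10927 genes. The steps were tested on simulated data. Sharing was computed from 50-base runs (and 75-base runs) of GENCODE transcripts, and start windows came from RefSeq. Tables were made with Python 3.11.15. Alternatives were other pseudocounts, no filter, other scales, each library left out, a replicate block, no trend, pseudogene reads added to their parent, and members without named pseudogenes.

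Named members were the 4 highest and 4 lowest, the 6 largest differences past the test, the 3 nearest to lower, every paralogue with its parent and the stalk; some genes that these rules select are not reported here. In each companion list they were the 3 genes of smallest p. Other genes named (Rps3, Rps6, Rps28, Rpl5, Rpl27, Rpl35a, Rpl14-ps1, Gm9794, Gapdh, Actb, Mertk) were chosen after their values were seen or as checks. The members and lists were chosen with earlier results of these data known. The other 10 marker lists are given in the closing part.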

Additional observations from a re-analysis of the deposited data

How the results depend on the processing

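On the deposited scale the median member difference (0.77) kept its sign under each pseudocount, filter and left-out library. A replicate block cannot move it, since every block holds a library of each group, so the block is no check of the sign. The median difference was 0.35 after centring on the median log2 ratio to the gene mean and 0.013 on the TPM scale. It turned to -0.43 after centring on the microglia list. The number of members higher (22) was 3 of 83 with no filter, 1 after centring on the median gene, 0 on the TPM scale, after microglia centring and after centring on the median log2 ratio, 13 without the trend, 8 after centring within length bins and 6 of the 18 tested members with no pseudogene named after them. With a library left out it ranged from 0 to 45. The number lower (0) was 3 after microglia centring. Pseudocounts of 0.01 and 1 gave 20 and 25. The centring within length bins, the centring on the median log2 ratio and the crossed block were chosen after seeing the data.

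Same-numbered libraries deviated from their group means with a correlation of -0.215 over 10927 genes. The labels tie no number to an animal or a day, and choroid plexus markers divided the libraries by number, so whether the numbers pair the samples is unknown. With the replicate block 15 members and 17 companion genes were higher, with 2443 of all genes tested. With the numbers crossed it was 59 and 82, with 4891 of all genes tested.

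Of all genes tested, 3364 were higher and 1012 lower. The number higher was 1865 with no filter, 1133 centred on the median gene, 113 on the TPM scale, 13 centred on microglia, 1942 within length bins and 713 centred on the median log2 ratio, and 1297 to 3356 with a library left out. The number lower was 2489 with no filter, 2091 on the TPM scale and 5973 centred on microglia. Of the companion genes 36 were higher and 0 lower. The number higher was 10 with no filter, 2 centred on the median gene, 0 on the TPM scale and centred on microglia, 14 within length bins, 1 centred on the median log2 ratio and 4 to 42 with a library left out. The number lower was 2, 20, 123, 5 and 3 on the median-centred, TPM, microglia-centred, length-centred and ratio-centred scales, and 0 to 1 with a library left out.

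Among 42 named genes, the difference turned negative on the TPM scale in 16: Rpl8 -0.044, Rpl4 -0.052, Rpl28 -0.75, Rps27l -0.67, Rps27a -0.47, Rpl7l1 -0.20, Rpl10 -0.083, Rpl22 -0.24, Rps27 -0.38, Rplp2 -0.0019, Eef2k -0.0081, Mrpl17 -0.096, Lamtor1 -0.056, Trp53 -0.075, Usp10 -0.49 and Rnf10 -0.56. Centred on microglia it did so in 41: Rpl8 -0.47, Rpl4 -0.48, Rpl32 -0.35, Rpl10a -0.048, Rpl37a -0.14, Rplp1 -0.20, Rpl29 -0.22, Rps20 -0.25, Rplp0 -0.26, Rpl28 -1.19, Rps27l -1.10, Rps27a -0.92, Rpl22l1 -0.30, Rpl7l1 -0.64, Rpl10 -0.55, Rpl22 -0.68, Rpl39 -0.32, Rpl3 -0.29, Rpl7 -0.36, Rps27 -0.85, Rplp2 -0.45, Fau -0.38, Eef2 -0.34, Eef1a1 -0.40, Eef2k -0.46, Eif1a -0.33, Eif5 -0.37, Eif4a1 -0.29, Npm1 -0.30, Rack1 -0.36, Ncl -0.42, Taf1b -0.38, Mrpl16 -0.23, Mrps15 -0.39, Mrpl17 -0.54, Rragc -0.35, Rptor -0.12, Lamtor1 -0.49, Trp53 -0.51, Usp10 -0.92 and Rnf10 -0.99. Centred on the median gene, it was Rpl28 -0.30, Rps27l -0.21, Rps27a -0.023, Usp10 -0.032 and Rnf10 -0.093. Within length bins it was Rpl28 -0.20, Rps27l -0.44, Rps27 -0.19, Usp10 -0.067 and Rnf10 -0.11. Centred on the median log2 ratio, it was Rpl28 -0.40, Rps27l -0.32, Rps27a -0.13, Rps27 -0.071, Usp10 -0.14 and Rnf10 -0.20. With a library left out, Rpl28 ranged from -0.39 to 0.42, Rps27l from -0.44 to 0.65 and Rps27 from -0.068 to 0.77.

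A scale moves all genes of a library together. For other changes, those with a library left out included, the cause was not tested. Low members are also limited by depth: Rpl3l and Rpl10l rest on a few reads per library.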

Other observations

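Of the other marker lists, those of astrocytes, oligodendrocyte precursors, endothelial cells, mural cells, neurons, neutrophils and T or NK cells had 8 of 10, 5 of 6, 4 of 6, 4 of 5, 2 of 3, 2 of 2 and 1 of 2 tested genes lower in AnnexinV-positive cells and 0 higher. The B cell list had its 1 tested gene higher, a call not made on the TPM scale. With no filter on low values, 1 of its 4 genes was higher and 1 lower, at a median difference of -1.29. The erythroid list had 1 tested gene, which did not pass. Markers of ependymal or choroid plexus cells divided the libraries by number rather than by group: summed over 5 genes they had an RPKM of 399 and 375 in the libraries numbered 1 (AnnexinV-positive first), against 59.0 and 20.8 in those numbered 2. The ribosomal protein genes did not follow that division, since they were highest in AnnexinV-positive library 2 and lowest in AnnexinV-negative library 2.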
